A study of Mus musculus with 7 samples.

Results

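The 7 genes described here encode the 3 chains of complement C1q (C1qa, C1qb and C1qc) and 4 receptors used to recognise resident macrophages (Cd163, Mrc1, Csf1r and Adgre1). They were chosen by name, not by a threshold on their measured values, from the 53083 genes counted under one name in every muscle, and all 7 were found. RNA was counted in single cryosections cut one after another through tibialis anterior, a muscle at the front of the mouse lower leg, with a barcode for each section. The groups are DMD with 3 muscles and 192 usable sections, Ctr with 2 muscles and 116 usable sections, and WT with 2 muscles and 114 usable sections. The series title names Duchenne muscular dystrophy, and the comparison of DMD with Ctr and WT asks which genes differ in dystrophic muscle. The column headers carry the word mdx for DMD, hDMD for Ctr and pax7 for WT. As background, mdx is the usual name of a dystrophin-deficient mouse line. The labels do not explain these words for the samples, and give no genotype, strain, age, sex or treatment for any group. They do not say whether the muscles come from separate animals, so every p-value measures only the spread between these muscles.

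C1q is the recognition molecule of the classical complement pathway. Each of its subunits is built from an A, a B and a C chain, it is made largely by macrophages rather than by the liver, and it binds immune complexes, apoptotic cells and debris before the proteases C1r and C1s act. Csf1r is the receptor for the growth factors Csf1 and Il34, on which macrophages depend for survival, and Adgre1 encodes F4/80, an adhesion receptor that marks mature mouse macrophages. Mrc1 (CD206) is an endocytic mannose receptor and Cd163 takes up haemoglobin bound to haptoglobin. Both receptors are used as markers of resident and alternatively activated macrophages. Dystrophic muscle is known to be infiltrated by macrophages around damaged and regenerating fibres.

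The C1q genes lie side by side on the minus strand of chromosome 4 (GRCm38): C1qb at chr4:136880129-136886187, C1qc at chr4:136889804-136893065 and C1qa at chr4:136895917-136898803, within 18.675 kb. Cd163 lies on the plus strand at chr6:124304656-124330527 and Mrc1 on the plus strand at chr2:14229392-14332057. Promoter sequences from RefSeq (GRCm38.p6, 250 bases before to 50 bases after the gene's start) were matched for 4 of the 7 genes. Those of a pair of C1q chains, whose counts were higher in DMD, and of Cd163, whose counts were not, are shown on the strand of the gene. Capitals mark GAGGAA, the core letters bound by the myeloid transcription factor PU.1, or TTCCTC where the match is on the other strand.
C1qb, chr4:136886151-136886450, minus strand: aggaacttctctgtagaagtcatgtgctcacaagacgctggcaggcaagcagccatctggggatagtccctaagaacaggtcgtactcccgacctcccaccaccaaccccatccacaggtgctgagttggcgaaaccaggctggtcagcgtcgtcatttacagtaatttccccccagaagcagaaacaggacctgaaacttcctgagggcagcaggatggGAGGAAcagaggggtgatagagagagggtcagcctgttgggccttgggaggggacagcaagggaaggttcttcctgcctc
C1qc, chr4:136892865-136893164, minus strand: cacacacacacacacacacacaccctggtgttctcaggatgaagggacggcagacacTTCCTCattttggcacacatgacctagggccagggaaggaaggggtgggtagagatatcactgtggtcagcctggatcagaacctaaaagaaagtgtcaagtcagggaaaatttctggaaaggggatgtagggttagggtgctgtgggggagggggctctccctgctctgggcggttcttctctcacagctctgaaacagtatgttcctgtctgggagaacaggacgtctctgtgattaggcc
Cd163, chr6:124304401-124304700, plus strand: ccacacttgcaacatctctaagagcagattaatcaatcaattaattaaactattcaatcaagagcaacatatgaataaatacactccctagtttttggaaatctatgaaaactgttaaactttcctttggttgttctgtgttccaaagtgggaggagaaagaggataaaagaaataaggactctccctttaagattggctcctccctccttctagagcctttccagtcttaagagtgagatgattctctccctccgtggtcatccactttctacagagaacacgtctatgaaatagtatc
GAGGAA was searched on both strands, and 28.3% of the 32851 RefSeq promoters of this length hold it. The window of C1qb held 1 match beginning 30 bases before the start, and that of C1qc held 1 match beginning 193 bases before it, on the other strand. The window of Mrc1 held 3 matches on the other strand, 180, 167 and 35 bases before the start, and that of Cd163 held none. Starts here are those of RefSeq, and those of C1qc and Mrc1 lie inside the gene spans given above. TATAAA, the TATA box, was in none of the 4 windows and in 13.6% of all promoters. A match of letters describes the window and does not show binding.

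All 3 C1q chains were higher in DMD than in Ctr and in WT muscles. Levels are CPM, the counts of the summed sections of a muscle brought to a common total, scaled by the TMM method of edgeR. C1qa was at 49.2, 48.5 and 15.2 CPM in the DMD muscles DMD-1, DMD-2 and DMD-3, against 4.07 and 8.08 CPM in Ctr-1 and Ctr-2 and 4.68 and 5.97 CPM in WT-1 and WT-2. C1qb was at 184, 237 and 39.9 CPM in the DMD muscles, against 20.6 and 28.7 CPM in Ctr and 15.2 and 17.7 CPM in WT. C1qc was at 71.0, 70.2 and 26.3 CPM in the DMD muscles, against 9.12 and 16.1 CPM in Ctr and 6.73 and 9.74 CPM in WT. For each chain every DMD muscle was above every Ctr and WT muscle, and DMD-3 was the lowest of the DMD muscles by a wide margin. The highest DMD muscle exceeded the lowest 3.23-fold for C1qa, 5.95-fold for C1qb and 2.7-fold for C1qc.

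C1qa rose 6.27-fold in DMD over Ctr, a log2 difference of 2.65 ± 0.52 (SE; edgeR quasi-likelihood test with Benjamini-Hochberg adjustment over all 13746 genes tested, adjusted p = 0.0166). C1qb rose 6.24-fold, a log2 difference of 2.64 ± 0.61 (adjusted p = 0.0271). C1qc rose 4.46-fold, a log2 difference of 2.16 ± 0.45 (adjusted p = 0.0195). Against WT, the log2 difference was 2.83 ± 0.52 for C1qa, 3.23 ± 0.64 for C1qb and 2.77 ± 0.46 for C1qc, with adjusted p of 0.0123, 0.0153 and 0.00897. In bulk sections more macrophages and more RNA per macrophage cannot be told apart. The WT tables were counted with another annotation, so in contrasts with WT the group and the annotation cannot be told apart.

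The chains kept similar proportions. C1qa made up 16.2, 13.6 and 18.7% of the C1q counts in DMD-1, DMD-2 and DMD-3, against 12.1 and 15.2% in Ctr and 17.6 and 17.8% in WT. C1qb made up 60.4, 66.6 and 49.0% in DMD, against 60.9 and 54.3% in Ctr and 57.1 and 53.0% in WT. C1qc made up 23.4, 19.7 and 32.3% in DMD, against 27.0 and 30.5% in Ctr and 25.3 and 29.2% in WT. For each chain the range of the DMD shares overlapped or enclosed those of the other groups. DMD-2 had the highest and DMD-3 the lowest share of C1qb among the 7 muscles.

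**Figure D1:**
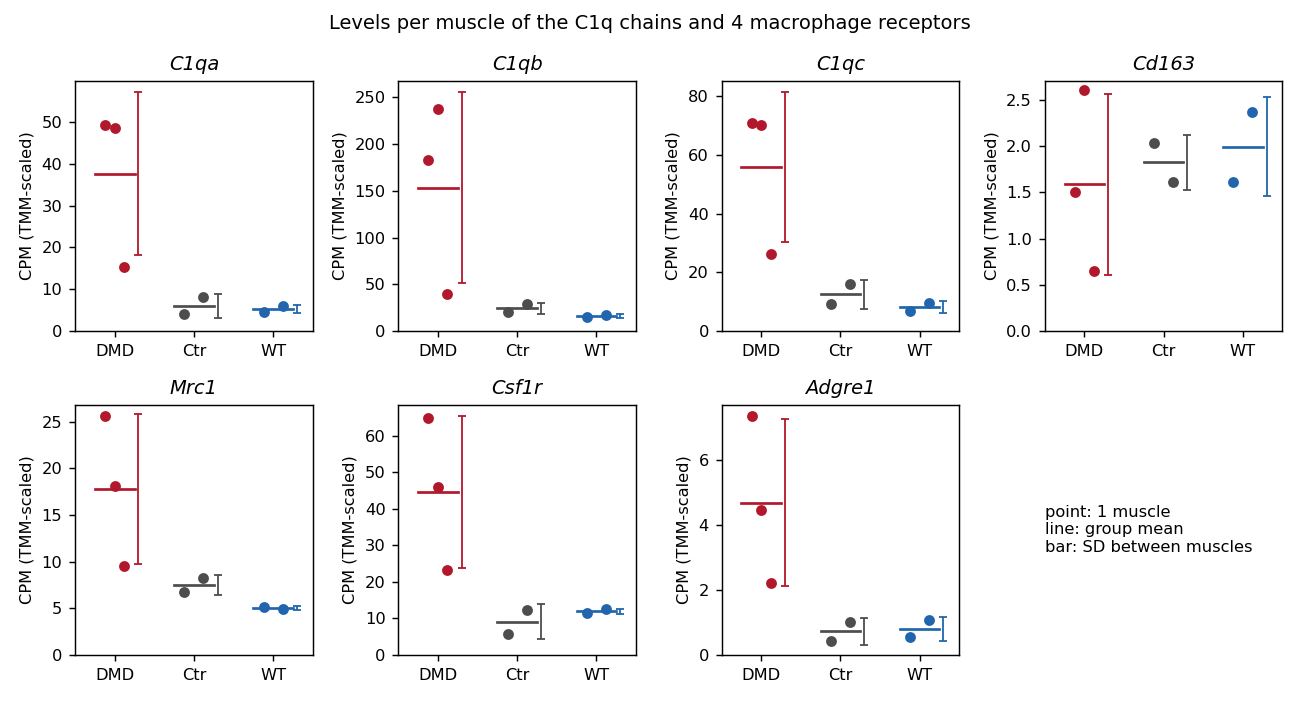
TMM-scaled CPM of each gene (vertical axes, from 0) in the DMD, Ctr and WT muscles, with 1 point per muscle, a line for the group mean and a bar for the SD between muscles. For the C1q chains, Mrc1, Csf1r and Adgre1 every DMD point lies above every Ctr and WT point, while the Cd163 points of the 3 groups overlap.

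Csf1r and Adgre1, the pan-macrophage receptors of the set, rose as well. Csf1r lies on the plus strand of chromosome 18 (chr18:61100598-61132149), where its exons overlap those of Hmgxb3 on the opposite strand, and counting used strand. Csf1r was at 64.8, 45.8 and 23.3 CPM in the DMD muscles, against 5.73 and 12.4 CPM in Ctr and 11.5 and 12.4 CPM in WT. The groups did not overlap, and DMD-1 was the highest muscle and DMD-3 the lowest DMD muscle. Csf1r rose 4.97-fold over Ctr, a log2 difference of 2.31 ± 0.45 (edgeR, adjusted p = 0.0167), and 3.73-fold over WT, a log2 difference of 1.90 ± 0.44 (adjusted p = 0.0234). Adgre1 (plus strand, chr17:57358691-57483527) was at 7.35, 4.47 and 2.22 CPM in the DMD muscles, against 0.431 and 1.02 CPM in Ctr and 0.538 and 1.06 CPM in WT. The lowest DMD muscle was 2.09-fold above the highest of the other 4 muscles, on only 7 and 12 counts in Ctr and 10 and 13 counts in WT. Adgre1 rose 6.77-fold over Ctr, a log2 difference of 2.76 ± 0.61 (edgeR, adjusted p = 0.0236), with a 95% interval of the fold from 2.66 to 17.3. Against WT its log2 difference was 2.62 ± 0.59 (adjusted p = 0.0220).

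Mrc1 had a smaller difference. It was at 25.6, 18.1 and 9.58 CPM in the DMD muscles, against 6.78 and 8.25 CPM in Ctr and 5.17 and 4.91 CPM in WT. The groups did not overlap, but the lowest DMD muscle was only 1.16-fold above the highest Ctr muscle. The log2 difference from Ctr was 1.25 ± 0.37, a 2.38-fold difference with a 95% interval of 1.35 to 4.19, and its adjusted p was 0.0511 in edgeR, just outside the threshold of 0.05. Against WT the log2 difference was 1.82 ± 0.38, and Mrc1 passed (edgeR, adjusted p = 0.0176).

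Cd163 stood apart from the other receptors. It was at 1.51, 2.60 and 0.653 CPM in the DMD muscles, on 88, 39 and 15 counts, against 2.03 and 1.62 CPM in Ctr and 1.61 and 2.37 CPM in WT. DMD-2 was the highest and DMD-3 the lowest of all 7 muscles, and the groups overlapped. The log2 difference from Ctr was -0.25 ± 0.50 (95% interval -1.36 to 0.86, edgeR, adjusted p = 0.772), and from WT it was -0.35 ± 0.49 (-1.45 to 0.75, adjusted p = 0.658). The upper bounds are a 1.82-fold difference from Ctr and a 1.68-fold difference from WT.

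Counted together, 5 of the 7 genes rose in DMD over Ctr, where 7.17% of all genes tested were called higher. Over WT 6 of 7 rose, where 8.25% of all genes were called higher. Every DMD muscle was above every Ctr and WT muscle for 6 of the 7, and for 14.5% of all genes tested. Both comparisons use the same DMD muscles. The 7 genes were set with earlier results of these data known, so these counts are a description. Between Ctr and WT none of the 7 genes was called in edgeR, where 0.364% of all genes were called in either direction. For no member was that difference below an unadjusted p of 0.05 in edgeR, and under none of the alternatives, DESeq2 included, was a member called in it. The log2 differences of Ctr minus WT ran from -0.41 ± 0.47 for Csf1r to 0.61 ± 0.47 for C1qc.

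The calls against Ctr rest on few muscles. Without Ctr-1 none of the 7 genes passed, and without DMD-1 2 passed, while without DMD-2, Ctr-2, WT-1 or WT-2 4 passed and without DMD-3 6 passed. C1qb passed in 9 of 16 alternatives, C1qc and Adgre1 in 14, C1qa and Csf1r in 15, Mrc1 in 6 and Cd163 in none. The log2 difference of C1qb stayed between 2.21 and 3.10 and that of C1qa between 2.21 and 3.19. Against WT all 6 genes lost the call without WT-1 or without WT-2, with adjusted p from 0.0986 to 0.188.

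**Figure D2:**
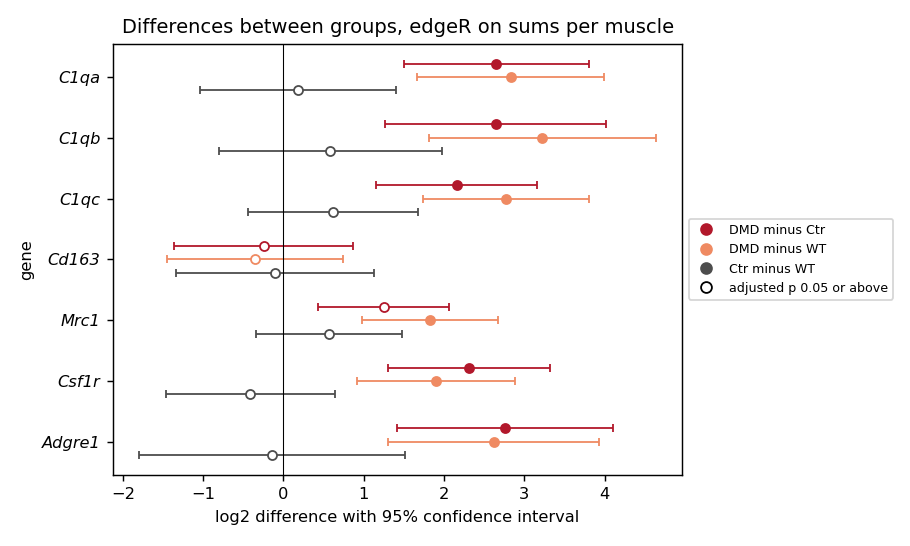
Log2 differences (horizontal axis) with 95% confidence intervals from edgeR for DMD minus Ctr, DMD minus WT and Ctr minus WT, 1 row per gene. Filled points have an adjusted p below 0.05. The intervals of the C1q chains, Csf1r and Adgre1 lie above 0 in both DMD contrasts, and those of Cd163 span 0 in every contrast.

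Set against C1q, Cd163 was scarcer in DMD. There were 0.499, 0.735 and 0.848 Cd163 counts per 100 C1q counts in the DMD muscles, against 6.15 and 3.19 in Ctr and 6.16 and 7.15 in WT. The groups did not overlap, and the mean log2 ratio differed by -2.71 between DMD and Ctr and by -3.0 between DMD and the 4 Ctr and WT muscles together. Mrc1 was at 8.44, 5.09 and 11.8 counts per 100 C1q counts in DMD, against 20.1 and 15.7 in Ctr and 19.5 and 14.8 in WT. Its groups did not overlap either, and the mean log2 ratio differed by -1.16 between DMD and Ctr and by -1.12 between DMD and the other 4 muscles. Csf1r was at 21.3, 12.9 and 28.6 per 100 C1q counts in DMD, against 17.1 and 23.6 in Ctr and 43.3 and 37.4 in WT, and the DMD and Ctr values overlapped. Adgre1 was at 2.42, 1.27 and 2.76 per 100 in DMD, against 1.37 and 2.01 in Ctr and 2.19 and 3.31 in WT, and all groups overlapped. Because C1q itself was higher in DMD, a gene with an unchanged level also has a lower ratio to C1q there. The share of all genes whose ratio to C1q separates the groups was not computed. An exact two-sided permutation test of 3 muscles against 4 cannot go below p = 0.0571, and of 3 against 2 not below 0.2, so these ratios are given as a description.

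**Figure D3:**
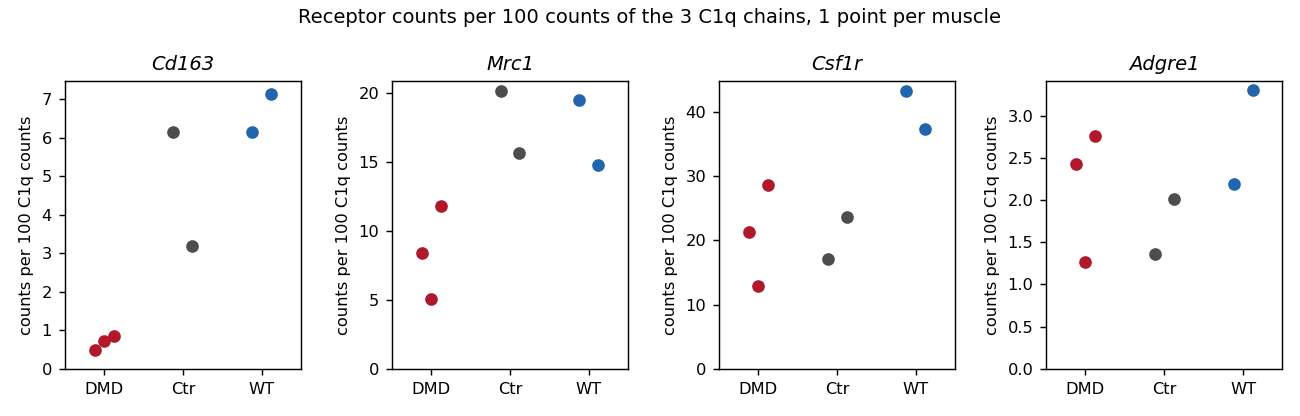
Counts of Cd163, Mrc1, Csf1r and Adgre1 per 100 counts of the 3 C1q chains (vertical axes, from 0), 1 point per muscle. For Cd163 the DMD muscles lie between 0.499 and 0.848 and all others at 3.19 or above; for Adgre1 the groups overlap.

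Other macrophage genes gave the setting. Of 10 pan-macrophage genes tested, 8 rose in DMD over Ctr and none fell, with a median log2 difference of 3.56 against 0.02 over all genes. Among them Cd68, a lysosomal membrane protein, differed by 4.73 (edgeR, adjusted p = 0.0195) and Tyrobp, a signalling adaptor, by 4.01 (adjusted p = 0.0185), and Cx3cr1, the fractalkine receptor, was called on only 2 counts in Ctr. Of 10 genes of phagocytic macrophages 9 rose, with a median of 4.79, led by the secreted protein Spp1 (log2 difference 6.16), the lipid receptor Trem2 (5.45) and the glycoprotein Gpnmb (5.37). Spp1 had only 7 counts and Trem2 only 4 counts in Ctr, so their sizes are uncertain. For the C1q chains the median was 2.64. The summed C1q chains were at 127, 227 and 224 counts per 100 pan-macrophage counts in DMD, against 282 and 307 in Ctr and 167 and 178 in WT. All 3 DMD values were below both Ctr values, and the WT values lay between those of DMD-1 and DMD-3.

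Of 12 other resident macrophage genes 10 were tested, 4 rose over Ctr and none fell. Those with the largest difference were the chemokine Ccl8 (log2 difference 3.26, edgeR, adjusted p = 0.0127), the folate receptor Folr2 (3.15, adjusted p = 0.0367) and the platelet factor Pf4 (2.12, adjusted p = 0.0481). The median over the 10 was 0.84, and 6 were not called. Among those, Lyve1 (-0.54), Cbr2 (-0.14) and Gas6 (0.0027) were not higher to any extent like that of the called genes. F13a1 (0.85) and Clec10a (0.52) were higher without a call. Over WT 4 rose as well: Ccl8 (4.23, adjusted p = 0.00577), the scavenger receptor Stab1 (2.25, adjusted p = 0.0142), F13a1 and Clec10a. Folr2 and Pf4 did not pass over WT (adjusted p = 0.140 and 0.0687). Counts of genes called in the short lists that follow are read against 7.17% of all genes called higher and 5.51% called lower over Ctr, and 8.25% and 6.92% over WT. Of 7 monocyte genes 5 were tested, and Ccr2, the receptor for the chemokine Ccl2, rose over Ctr (2.51, adjusted p = 0.0348) and over WT (2.10, adjusted p = 0.0446). Of the Csf1r ligands and macrophage transcription factors, all 8 were tested, 1 rose and 1 fell over Ctr. Over WT 3 rose and 0 fell, among them Spi1 and the ligand Csf1 (2.61 and 1.75, adjusted p = 0.0484 and 0.0366). Spi1, which encodes PU.1, was higher than in Ctr by 3.77 (adjusted p = 0.0258). Cebpb, an inflammatory C/EBP factor, was lower than in Ctr (-2.07, adjusted p = 0.0437). Cebpb was at 24.7, 9.48 and 21.1 CPM in DMD, against 131 and 24.9 CPM in Ctr and 14.5 and 10.4 CPM in WT. Ctr-1 stood far above the other 6 muscles, and against WT the log2 difference was 0.57 (adjusted p = 0.544). Of 8 haem and iron genes 7 were tested. The phagosomal iron transporter Slc11a1 rose over Ctr (3.51, adjusted p = 0.0299) but did not pass over WT (2.11, adjusted p = 0.0751). The iron exporter Slc40a1 fell against Ctr (-2.10, adjusted p = 0.00392) and against WT (-1.90, adjusted p = 0.00385), and the ferritin chain Ftl1 rose over WT (2.01, adjusted p = 0.0166).

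Further along the complement cascade the differences from Ctr were smaller, except among receptors. Of 8 classical pathway genes beside C1q, 6 were tested and 3 rose over Ctr: the protease C1s1 by 1.37 (edgeR, adjusted p = 0.0182) and the C1r genes C1rb by 1.21 (adjusted p = 0.0271) and C1ra by 1.19 (adjusted p = 0.0312). C1ra and C1rb are close relatives and may share reads, as may C1s1 with C1s2. None of these 3 passed over WT, with log2 differences of 0.62, 0.89 and 0.65 for C1s1, C1rb and C1ra and adjusted p of 0.136, 0.0529 and 0.141. Over WT 1 of the 6 rose, C4b, a gene of complement component C4 (2.56, adjusted p = 0.00287), which was also higher in Ctr than in WT (2.11, adjusted p = 0.0463). Of 5 complement receptors tested, 4 rose over Ctr and 4 over WT. The largest over Ctr were those of the integrin chains Itgax (4.72) and Itgb2 (4.10) and of the C3a receptor C3ar1 (4.46), with adjusted p of 0.0309, 0.0172 and 0.0238. Itgax had only 4 counts in Ctr, and C3ar1 only 9. Of 8 regulators tested, 2 rose, clusterin (Clu) by 1.14 and the decay-accelerating factor Cd55 by 0.86, with adjusted p of 0.0286 and 0.0331 over Ctr. Over WT none of the 8 was called, and Clu and Cd55 had adjusted p of 0.204 and 0.0573. Of 5 genes of the alternative and lectin pathways tested, properdin (Cfp, 1.80) and factor B (Cfb, 1.69) rose over Ctr, with adjusted p of 0.0465 and 0.0241, and both rose over WT.

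Markers of other cells were looked at beside these results. The skeletal muscle markers were present in every library, and their summed level was 39357 to 53868 CPM in DMD, 57404 to 72101 CPM in Ctr and 60579 to 61260 CPM in WT. Of the 8 regenerating fibre genes 7 rose over Ctr, among them Mymk, the fusion protein myomaker (log2 difference 6.67, edgeR, adjusted p = 0.00733), and their summed level was 58.4 to 171 CPM in DMD, 12.6 to 19.9 CPM in Ctr and 10.3 to 10.5 CPM in WT. Mymk had only 4 counts in Ctr, and Mymx and Chrng, also called, were at 0 counts in both Ctr muscles. Of 5 fibroblast markers 3 rose over Ctr, collagen Col1a1 by 3.23, lumican (Lum) by 2.66 and dermatopontin (Dpt) by 1.37, with adjusted p of 0.0134, 0.0105 and 0.0307, and their sum was 506 to 1058 CPM in DMD, 234 to 350 CPM in Ctr and 367 to 466 CPM in WT. Over WT none of the 5 was called, with log2 differences of 1.57 for Col1a1, 0.52 for Lum and 0.89 for Dpt and adjusted p of 0.0720, 0.374 and 0.0899. For Ctr minus WT the log2 difference was -1.67 for Col1a1 and -2.14 for Lum, not called. Monocyte genes summed to 5.75 to 17.7 CPM in DMD, 4.42 to 7.27 CPM in Ctr and 5.92 to 6.06 CPM in WT. The T cell markers were at most 0.806 CPM in DMD, 0.255 CPM in Ctr and 0.215 CPM in WT, with Cd8a at 0 in all. Lymphatic endothelial markers, whose cells also express Mrc1, summed to 3.35 to 4.34 CPM in DMD, 2.84 to 3.57 CPM in Ctr and 3.61 to 3.68 CPM in WT. None of the markers of dendritic, neutrophil, B, mast, lymphatic endothelial or endothelial cells that were tested was called against Ctr, and of the skeletal muscle markers Mb, the oxygen store myoglobin, fell (-1.39, adjusted p = 0.0136). The part of any of these lists in the results was not tested.

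Along the order of the sections, C1q was uneven in one DMD muscle. The labels do not say that this order is anatomical or at which end the first section lies. The order may therefore run in opposite directions in different muscles. Section levels are CPM of a single section, without TMM scaling. Windows pooled the counts and the totals of 9 neighbouring sections. In DMD-1 the highest window of the summed C1q chains was at 1157 CPM, centred at 93.1% of the order. The lowest was at 120 CPM, centred at 6.92%, a 9.61-fold range. In DMD-2 the same windows ran from 398 to 555 CPM (1.39-fold) and in DMD-3 from 52.9 to 98.6 CPM (1.86-fold). The ranges were 2.30-fold and 1.87-fold in Ctr-1 and Ctr-2 and 1.26-fold and 3.78-fold in WT-1 and WT-2, on 6.37 to 11.3 C1q counts per section in those 4 muscles. Neighbouring sections of DMD-1 correlated with r = 0.93 over 65 sections, against 0.31 in DMD-2, 0.20 in DMD-3 and at most 0.24 in the Ctr and WT muscles.

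**Figure D4:**
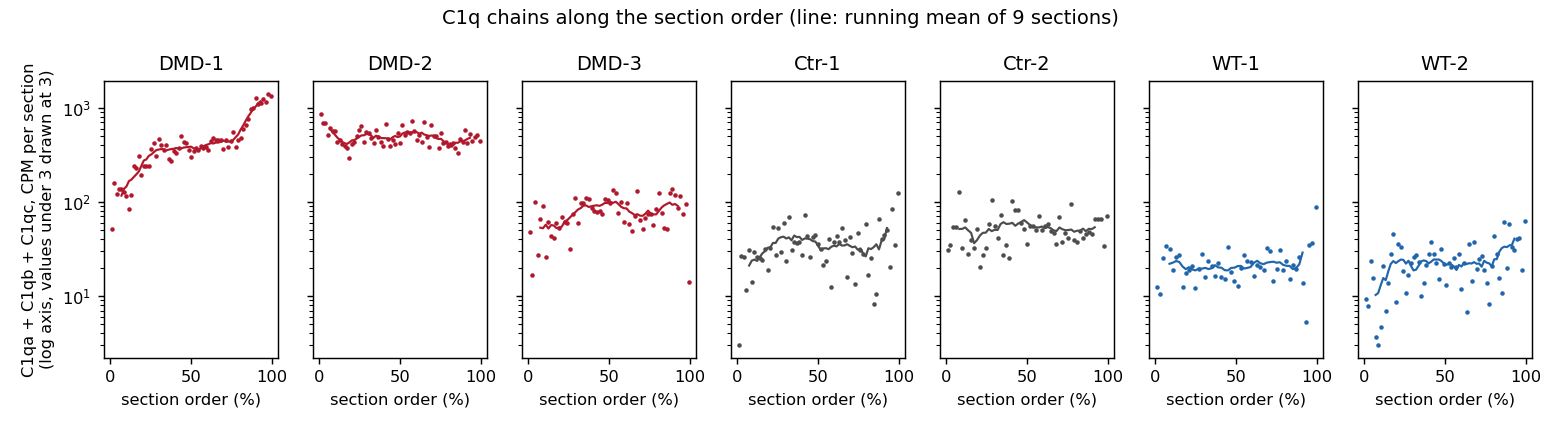
Summed C1q chains per section (log vertical axis, CPM without TMM scaling) against the position in the section order in percent, 1 panel per muscle, with DMD muscles in red, Ctr in grey and WT in blue. The line is the unweighted running mean of 9 sections. With the counts of 9 neighbouring sections pooled instead, the level ranged 9.61-fold in DMD-1, highest near the end of the order, and 1.39-fold in DMD-2.

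Most of the receptors followed this slope in DMD-1, and Cd163 did so less. With the kept sections cut into 5 runs, the summed C1q chains stood at 648 CPM in the last run of DMD-1 and 121 CPM in the first. Both were scaled with the TMM factor of the whole muscle, which cancels in the ratio. The runs are therefore not scaled against each other. Their ratio was 5.35 (95% interval 5.03 to 5.70, covering counting error only). The ratio was 6.0 for C1qa, 5.30 for C1qb and 5.10 for C1qc. For Csf1r it was 4.75 (4.16 to 5.45), for Mrc1 4.49 (3.61 to 5.61) and for Adgre1 2.49 (1.74 to 3.61). For Cd163 it was 1.36 (0.620 to 3.24), on 16 and 12 counts, an interval that does not reach those of the C1q chains, Csf1r or Mrc1. In DMD-2 the ratio of the summed C1q chains was 0.953 (0.867 to 1.05) and in DMD-3 it was 1.68 (1.39 to 2.01). It was 1.89 (1.40 to 2.5) in Ctr-1, 1.14 (0.847 to 1.5) in Ctr-2, 0.999 (0.682 to 1.45) in WT-1 and 2.31 (1.48 to 3.80) in WT-2, so the ratios of Ctr-1 and WT-2 were larger than that of DMD-3. For Csf1r it was 7.03 in Ctr-2, on 36 and 3 counts, with an interval of 2.22 to 35.7 that holds the DMD-1 value. These are values within single muscles.

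**Figure D5:**
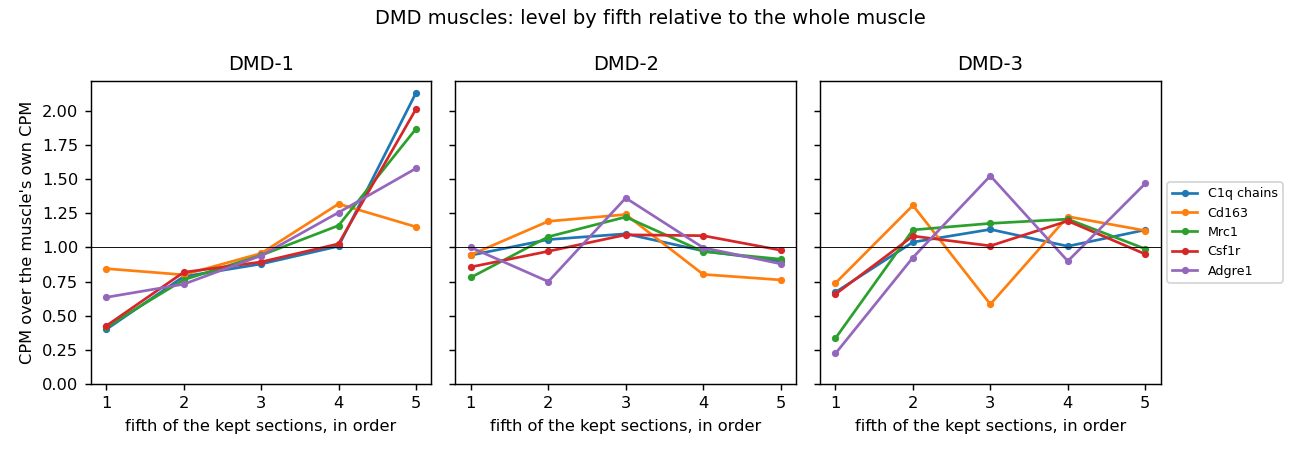
Level in each of 5 runs of the kept sections, in section order, divided by the level of the whole muscle (vertical axis, from 0), for the summed C1q chains and 4 receptors in the 3 DMD muscles. Runs are not scaled against each other. In DMD-1 the C1q chains, Csf1r, Mrc1 and Adgre1 are highest in the last run. The Cd163 line rests on 88, 39 and 15 counts in DMD-1, DMD-2 and DMD-3.

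Across the sections of DMD-1 the log2 level of C1q correlated with that of Csf1r at r = 0.95, of Mrc1 at 0.90 and of Adgre1 at 0.68, and with that of Cd163 at 0.06. Cd163 had a mean of only 1.35 counts per section there, too few for a low r to show that it varied apart from C1q. In DMD-2 the values were 0.10 for Csf1r, 0.01 for Mrc1 and 0.03 for Adgre1, and in DMD-3 they were 0.54, 0.21 and 0.39. Csf1r, Mrc1 and Adgre1 had means of 58.1, 23.0 and 6.6 counts per section in DMD-1. The means were 10.2, 4.04 and 1 in DMD-2 and 8.9, 3.67 and 0.85 in DMD-3. At these lower counts a low r does not show that a gene varied apart from C1q. Cd163 gave 0.00 and 0.05 in DMD-2 and DMD-3, at under 1 count per section. Among the chains themselves r was 0.86 to 0.95 in DMD-1, 0.22 to 0.33 in DMD-2 and 0.26 to 0.55 in DMD-3. These are descriptions over 65, 67 and 60 sections that share library preparation and neighbours. The regenerating fibre genes correlated with C1q at 0.95 in DMD-1, -0.11 in DMD-2 and 0.57 in DMD-3. The summed phagocytic genes gave 0.97, 0.57 and 0.52, and the fibroblast markers 0.79, 0.33 and 0.51. Ctsb was the largest part of the phagocytic sum, at a mean of 2497 CPM in DMD, where the sums were 1979 to 4202 CPM. Ctsb alone correlated with C1q at 0.96, 0.49 and 0.44. The section total gave -0.04, -0.38 and 0.20. The part of these in the slope was not tested.

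The 8 genes most like C1q over the DMD sections were H2-Ab1, Actb, Ftl1-ps1, Ftl1, Crip1, Wdr89, Rplp2 and Ctsb. They were ranked by the mean of the r of the 3 muscles, among 3978 genes with a mean of at least 10 CPM in each DMD muscle. Genes below this in any DMD muscle were not searched. Cd68 and Tyrobp were lower, at 3.66 and 2.96 TMM-scaled CPM in their lowest DMD muscle. H2-Ab1, an MHC class II chain, led with r of 0.94, 0.62 and 0.53 in DMD-1, DMD-2 and DMD-3, a mean of 0.69, and Ctsb, the lysosomal protease cathepsin B, closed with a mean of 0.63. Ftl1, the ferritin light chain, had a mean of 0.66, and Ftl1-ps1 is its pseudogene, so reads may be divided between them. The median over all genes searched was 0.10 and the 95th percentile 0.40. With rank correlation 5 of the 8 stayed among the first 8, and with a pseudocount of 1 CPM in place of 10, 7 stayed.

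Each muscle was divided into a first, a middle and a last run of sections, each run with its own TMM factor. The last run was compared with the first. The mean over muscles treats the first run as the same end in each, which is not known. C1qa was at 31.5 CPM in the first run, 45.3 CPM in the middle and 72.5 CPM in the last in DMD-1, at 48.4, 52.0 and 46.3 CPM in DMD-2, and at 11.4, 17.2 and 17.9 CPM in DMD-3. Mrc1 was at 16.8, 25.4 and 35.5 CPM in DMD-1, at 14.2, 23.8 and 16.3 CPM in DMD-2, and at 6.86, 11.4 and 10.7 CPM in DMD-3. Mrc1 was higher in the last than in the first run in each DMD muscle, and C1qa in DMD-1 and DMD-3. Last minus first in DMD was called for 2 of 7 genes, C1qa with a log2 difference of 0.68 ± 0.16 (edgeR, adjusted p = 0.0335) and Mrc1 with 0.77 ± 0.15 (adjusted p = 0.0200), where 0.692% of all genes were called higher. Without DMD-1 these were 0.20 and 0.39, with adjusted p of 0.935 and 0.864, and DESeq2 gave adjusted p of 0.283 and 0.228. Without Ctr-1, Ctr-2 or WT-2, which enter through the shared spread, C1qa had adjusted p of 0.0671, 0.0688 and 0.0529. C1qb (0.41 ± 0.15), C1qc (0.49 ± 0.15), Csf1r (0.54 ± 0.16) and Adgre1 (0.74 ± 0.24) were not called, and Cd163 gave 0.07 ± 0.39.

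The ends were also compared with the middle of the muscle, since the series title speaks of compartments. Averaged over the 3 groups, Mrc1 was lower at the ends by a log2 value of -0.42 ± 0.13 (edgeR, unadjusted p = 0.00280, adjusted p = 0.483). In each of the 7 muscles the mean of the end runs was below the middle run for Mrc1, with -0.06 to -0.69 on the log2 scale. It passed only without DMD-1 (-0.50, adjusted p = 0.0432), and its adjusted p over the other alternatives ran up to 1. How many of all genes had ends below the middle in every muscle was not computed. In WT-1 the first run of Mrc1, at 5.76 CPM, was above the middle run, at 5.62 CPM. None of the 7 genes was called for ends minus middle in the mean of the 3 groups, in edgeR, where 0.202% of all genes were called in either direction. None was called in DMD (0.11% of all genes), where Mrc1 alone had an unadjusted p below 0.05 (-0.30 ± 0.13). None was called for DMD minus Ctr, the difference of that contrast (0.00844% of all genes), where Adgre1 alone had an unadjusted p below 0.05 (-1.82 ± 0.83), on 7 and 12 counts in Ctr. For C1qb the DMD value was -0.04 ± 0.13 with a 95% interval of -0.30 to 0.22. Under none of the alternatives was a member called in DMD or in DMD minus Ctr, DESeq2 included.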

How the data were processed

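Per the labels, polyA RNA was extracted from single cryosections and read 2 carried a molecular identifier and a section barcode. The authors deposited expected counts: per the file headers, featureCounts 2.0.1 divided multi-mapped and overlapping reads into fractions and used strand, so some values are not whole. The submitters' processing notes name STAR 2.7.7a and the build GRCm38. WT was counted, per the file headers, with Ensembl release 102 plus spike-ins and EGFP, Ctr and DMD with another annotation plus spike-ins and human DMD.

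Sections with at least 1000 counts and 20% of the median of their muscle were kept (422 of 525) and summed per muscle to totals of 1.12e+07 to 4.14e+07 counts. The sums of each gene were rounded to whole numbers before testing. Genes were tested with edgeR 4.0.16 in R 4.3.3 (filterByExpr, TMM, quasi-likelihood F test over all 3 groups, Benjamini-Hochberg adjustment), and runs of sections with muscle as a block. The ± after a log2 difference is its size divided by the square root of F. Ratios added 0.5 to each sum, and section correlations used log2 of CPM plus 10. The steps were tested on simulated data. DESeq2 1.42.0, other scalings, filters, section sets and leaving out each muscle were alternatives. Genes were named by rule: the 7 genes, up to 3 called members of each list by size of difference (or the highest tested one), and the 8 most similar genes. The 7 genes were chosen by name, and they and the lists were set with earlier results of these data known. Same-numbered muscles are not shown to be paired. Intervals of edgeR differences rest on the spread between muscles, and those of ratios within a muscle cover counting error only.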

Additional observations from a re-analysis of the deposited data

Results flagged for a closer look

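Mrc1 had opposite signs of last minus first along the section order in the DMD and WT muscles. It was higher in the last than in the first run of sections in all 3 DMD muscles, by 1.08, 0.20 and 0.64 on the log2 scale, and lower in both WT muscles, by -0.55 and -1.20. The mean difference between the groups was 1.51, from 0.64 in DMD and -0.87 in WT, and this difference was not tested. WT-2 had only 7 Mrc1 counts in its last run. In Ctr the values were -0.08 and 0.15. It was the only such case among 35 comparisons of a gene and a pair of groups that were looked at. With 2 or 3 muscles in a group, random signs can give such cases, and their expected number was not computed. Whether the first section lies at the same end in every muscle is not known.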

How the results depend on the processing

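Under the alternatives run, the log2 difference of C1qa, C1qb, C1qc, Mrc1, Csf1r and Adgre1 between DMD and Ctr or WT stayed positive, and that of Cd163 was never called. That of Cd163 from Ctr was 0.055 with the replicate block and -0.68 to 0.085 with 1 muscle left out. With the replicate block, which treats muscles of one number as paired although their deviations were not shown to move together (correlations 0.09 and 0.19 between DMD and Ctr), 3890 genes were called for DMD minus Ctr against 1743 without it, 4063 for DMD minus WT against 2085, and 798 for Ctr minus WT against 50. It gave Mrc1 a call against Ctr (log2 difference 1.54, adjusted p = 0.00138) and changed no other call of the 7 genes against Ctr.

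The counts of genes called for DMD minus Ctr were 2999 with no low-count filter, 968 with thinned sections, 683 with only the 2 groups fitted and 56 (without Ctr-1) to 3425 (without DMD-3) with 1 muscle left out. For DMD minus WT they were 3208, 794 with thinned sections, and 68 (without WT-2) to 3595 (without DMD-3). For Ctr minus WT they were 411 with DESeq2, 860 with no filter, 586 with only the 2 groups, and 2 (without WT-1 or WT-2) to 513 (without DMD-3). With no filter, ends minus middle gave 35 genes in DMD, 21 in Ctr, 9 in WT, 46 in the mean of the groups and 4 for DMD minus Ctr, against 13, 7, 1, 24 and 1. DESeq2 gave 5 in DMD and 0 for DMD minus Ctr, and all sections gave 4 and 2. In WT the first and last of 4 or of 5 runs as ends gave 4 and 6. With 1 muscle left out these counts were 4 to 14, 2 to 18, 0 to 8, 13 to 35 and 0 to 2. Last minus first in DMD called 152 genes, 520 with no filter, 24 with DESeq2, 80 with all sections, 266 with runs of 5, and 9 (without DMD-1) to 914 (without DMD-2). In the mean of the groups it called 373, 227 with runs of 5, and 103 to 468. A muscle left alone in its group is assumed to vary like the others.

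Small differences that were never called changed sign. For Ctr minus WT, thinned sections gave -0.21 for C1qa and 0.48 for Cd163, and leaving out 1 muscle gave -0.37 to 0.61 for C1qa, -0.36 to 0.18 for Cd163, -1.06 to 0.053 for Csf1r and -0.82 to 0.40 for Adgre1. For ends minus middle, leaving out 1 muscle gave -0.21 to 0.059 for C1qb in DMD, and in the mean of the groups -0.11 to 0.16 for C1qa, -0.15 to 0.046 for C1qb and -0.0034 to 0.71 for Adgre1. There the first and last of 4 runs gave -0.070 for C1qa and -0.16 for Adgre1. For DMD minus Ctr of that contrast, all sections gave -0.044 for C1qc and 0.0032 for Csf1r, DESeq2 -0.051 for Cd163, ends of 5 runs -0.10 for Mrc1 and 0.18 for Csf1r, and ends of 4 runs 0.16 for Csf1r. Leaving out 1 muscle gave -0.27 to 0.31 for C1qc, -0.42 to 0.34 for Cd163 and -0.34 to 0.076 for Csf1r. For last minus first in DMD it gave -0.048 to 0.74 for C1qb and -0.70 to 0.34 for Cd163, and DESeq2 gave -0.088 for Cd163. Values of the 7 genes for ends minus middle in Ctr or WT alone, and for last minus first in the mean of the groups, are not reported.

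The log2 ratio of Adgre1 to C1q between DMD and Ctr was -0.069 from the mean of section CPM, and leaving out 1 muscle gave -0.27 to 0.29 against the 4 Ctr and WT muscles. It gave -0.28 to 0.30 for Csf1r to C1q against Ctr, and -0.42 to 0.0043 for C1q to pan-macrophage genes against the 4 muscles. The ratios of Cd163 and Mrc1 to C1q kept their sign under every alternative run. Depth limits Cd163 and Adgre1 most. The causes of these changes were not tested.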
